A study of Mus musculus with 12 samples.

Results

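The cyclic nucleotide phosphodiesterases were followed in C57MG cells, a mouse mammary epithelial line, through 10 genes: *Pde1a*, *Pde1c*, *Pde3b*, *Pde4a*, *Pde4b*, *Pde4d*, *Pde5a*, *Pde7a*, *Pde8a* and *Pde10a*. Every array spot other than a control spot that carried 1 of these symbols was taken, which gave 28 probes of the 41174 on the array and 10 of the 22410 gene symbols. The genes were chosen by symbol with their log2 changes in the comparisons below already known. These changes are therefore given as descriptions, and no p-value is printed for them. Calls of family probes, and counts of them by p-value, are likewise descriptions and no independent tests. Cells were treated for 24 h in plain medium with recombinant human R-spondin2 (Rspo2, 100 ng/ml), with recombinant mouse Wnt3a (100 ng/ml), with the 2 proteins together, or with bovine serum albumin (BSA), the carrier protein, which served as the vehicle control. Each of these 4 treatments was measured on 3 one-colour oligonucleotide arrays of separately treated monolayers of a single cell line. All groups therefore share 1 genetic background.

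Phosphodiesterases hydrolyse the second messengers cAMP and cGMP and so set how long and how far each signal travels in a cell. Adenylyl cyclases, driven by G protein coupled receptors through the stimulatory alpha subunit, make cAMP, which acts through protein kinase A, the exchange factor EPAC and transcription factors of the CREB family. The PDE4, PDE7 and PDE8 enzymes act on cAMP, PDE5 acts on cGMP, and PDE1, PDE3 and PDE10 accept both nucleotides. PDE1 enzymes are switched on by calcium and calmodulin, and PDE3 enzymes are held back by cGMP. Rspo2 is a secreted protein that strengthens signalling by Wnt ligands such as Wnt3a.

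Between 51.3% and 64.2% of probes were well above background on an array, BSA replicate 1 being the highest and Rspo2 and Wnt3a replicate 1 the next at 61.7%. The arrays came on 3 slides. All BSA arrays shared slide 1 with Rspo2 replicate 1. The remaining Rspo2 arrays and Wnt3a replicates 1 and 2 were on slide 2, and Wnt3a replicate 3 shared slide 3 with the combination. BSA was thus never on a slide with Wnt3a, alone or combined, so treatment and slide are largely confounded. Log2 changes fitted with slide as a term are given gene by gene for the combination. Such a fit joins BSA to the combination through Rspo2 replicate 1 on slide 1 and Wnt3a replicate 3 on slide 3. The arrays of slide 2 are the link between them. These values thus chain the differences within slides and are no separate check on them. Of 8 epithelial marker genes, *Krt8*, *Krt14* and *Trp63* were well above background on all 12 arrays, whereas the epithelial cadherin *Cdh1* was on none and *Epcam* on 2. All 8 mesenchymal markers were well above background on every array. The summed epithelial marker signal, linear and relative to the 75th percentile of each array, ran from 11.6 to 11.9 with BSA, from 11.3 to 13.6 with Rspo2, from 16.7 to 18.2 with Wnt3a and from 23.5 to 26.7 with both. This sum was mostly *Krt14*, and without it the range was 1.45 to 1.77 with BSA and 1.14 to 1.25 with both. In log2 terms the changes with both were 1.24 for *Krt14*, 0.22 for *Krt5*, -0.40 for *Trp63* and -1.15 for *Krt8*, so the epithelial markers did not move one way. The part of these shifts in the phosphodiesterase values was not tested. In RNA from whole cultures, fewer cells of a type and less RNA per cell cannot be told apart.

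Detection differed between the probes of the family. A probe was tested when some group had it well above background in all 3 replicates. This held for 17 of the 28 probes, from 8 genes, where 22751 of all 41174 probes on the array were tested. Of those 17, 15 were well above background on all 12 arrays. The 4 *Pde1a*, 2 *Pde7a* and single *Pde8a* probes were all tested, as were 4 of 6 for *Pde1c* and 3 of 4 for *Pde4b*. *Pde4a*, *Pde4d* and *Pde10a* had 1 tested probe each. *Pde3b* and *Pde5a* had none. Of the 11 untested probes, 6 were well above background on no array, and the other 5 on between 1 and 4 arrays.

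**Figure D1:**
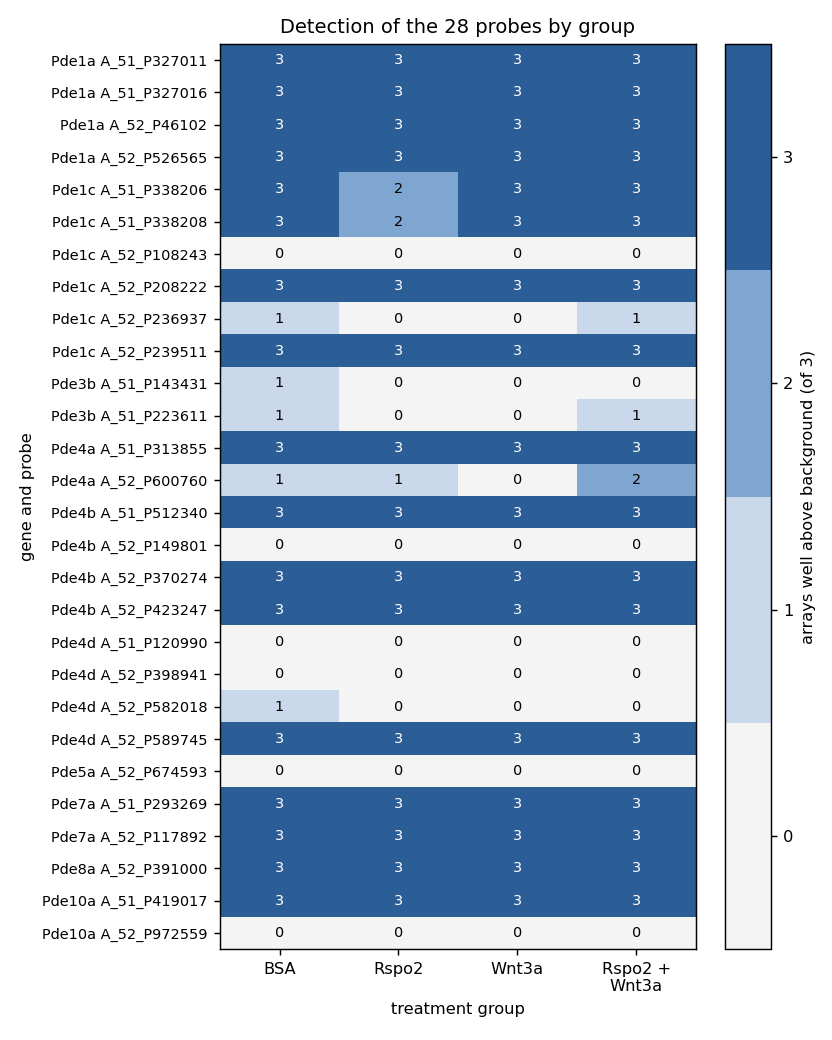
Number of arrays, of 3, on which each of the 28 probes (rows) was well above background in each treatment group (columns). The probes of *Pde1a*, *Pde7a* and *Pde8a* read 3 in every group, whereas the *Pde5a* probe reads 0 throughout.

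The probes of a gene did not all read the same stretch of it. Distances below are along the chromosome between the lower coordinates of the probes as the array files place them. The files do not name their genome build. The 3 tested *Pde4b* probes lay 316 to 350 kb downstream of the fourth, A_52_P149801, which was well above background on no array and read between 4.76 and 16.5 intensity units. The tested *Pde4d* probe, A_52_P589745, lay 412 kb downstream of the first *Pde4d* probe and 213 and 218 kb upstream of the other two, and those 3 probes were well above background on 1 array between them. The 2 *Pde3b* probes sat on opposite strands, 338 bases apart, the first made to a RefSeq transcript and the second to a cDNA clone. The undetected *Pde4b* probe was assigned to the same RefSeq transcript as 2 of the tested ones. The tested *Pde4d* probe likewise shared its RefSeq transcript with A_52_P582018, 1 of the other 3. Differences between probes of *Pde4b* or *Pde4d* may still concern separate transcripts of the gene. The assigned transcripts do not separate these probes, and the arrays do not resolve the question.

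With Rspo2 and Wnt3a together, probes of the cAMP-specific genes *Pde8a*, *Pde4b* and *Pde4a* were at least 2-fold lower, and no tested family probe was 2-fold higher. The tested probes of *Pde7a* and *Pde4d*, also cAMP-specific, changed by less than 2-fold. A probe was called when limma's moderated test across all 22751 tested probes gave a Benjamini-Hochberg adjusted p under 0.05 and the change was at least 2-fold. By this rule 4 of the 17 probes were called lower with the combination against BSA: the *Pde8a* probe, the *Pde4a* probe and 2 of the 3 *Pde4b* probes. Over all tested probes 3.79% were called lower and 5.08% in either direction. Since the genes were chosen with these changes known, the family count beside this share is a description and no test. In log2 terms 14 of the 17 probes were lower, with a median change of -0.47 against 0.04 for all tested probes. The 3 that were not lower were all *Pde1c* probes. Under quantile normalization 13 of the 17 were lower, all but the 4 *Pde1c* probes. The ranges of the 2 groups did not overlap for 11 of the 17 probes, where 53.9% of all tested probes showed this. Just inside the 2-fold limit stood *Pde4b* A_51_P512340 at -1.01, and just outside it *Pde1a* A_52_P526565 at -0.97 and *Pde4b* A_52_P423247 at -0.96. Each of the 4 calls was lost with slide as a term or under another background correction, as given by gene below.

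Neither protein alone moved a family probe past the rule. With Rspo2 against BSA 0 of 17 were called by limma, where 0.721% of all tested probes were called, and 3 of the 17 had an unadjusted p under 0.05, as had 35% of all tested probes. With Wnt3a against BSA 0 of 17 were called against 2.52% of all tested probes, and 7 had an unadjusted p under 0.05, beside 43% of all. The t-test of the study's methods also called 0 in both comparisons, and the share of all tested probes that it called is not given here. The median change of the 17 was -0.01 with Rspo2 and -0.24 with Wnt3a, on the log2 scale, and 9 and 15 of the 17 were lower. Under quantile normalization the Wnt3a median was -0.15 and 11 of the 17 were lower. The ranges did not overlap with BSA for 5 probes under Rspo2 and 6 under Wnt3a, against 43.5% and 45.5% of all tested probes. When Rspo2 was added to Wnt3a, only *Pde8a* was called, lower, as were 0.334% of all tested probes (0.747% in either direction), and the ranges of the combination and of Wnt3a did not overlap for 12 of the 17, against 21.4% of all tested probes. *Pde8a* was likewise the only probe called for the interaction, the change with both proteins minus the sum of the changes with each. Of all tested probes 0.651% were called for a negative interaction and 1.93% in either direction. By adjusted p alone, with no fold limit, 2 of the 17 family probes passed with Rspo2, 7 with Wnt3a and 11 with both against BSA, beside 16.8%, 31.5% and 39.2% of all tested probes. In the same way 5 passed with both against Wnt3a and 5 for the interaction, beside 4.27% and 8.9% of all. These comparisons share their BSA or Wnt3a arrays.

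**Figure D2:**
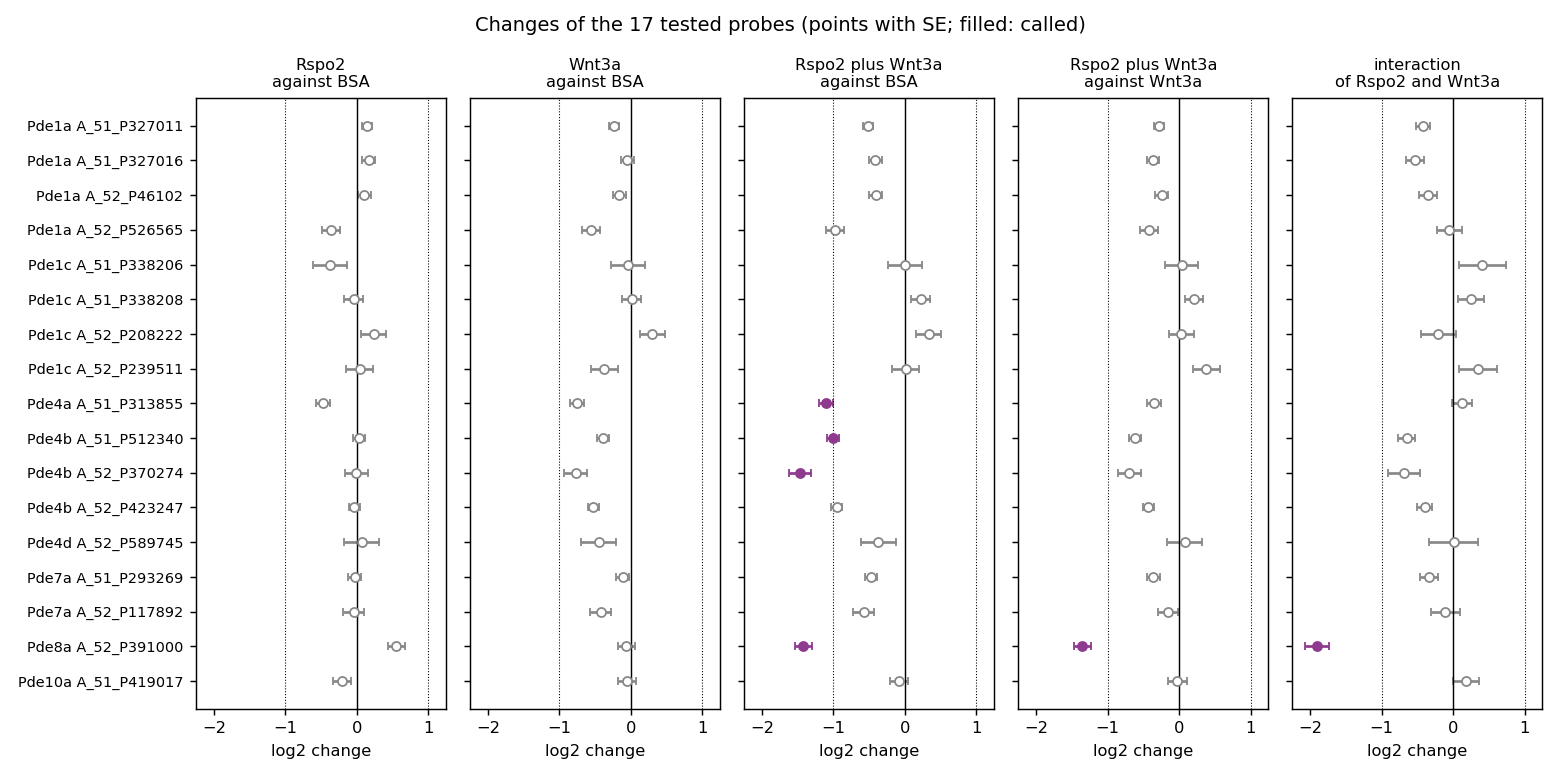
Log2 change (horizontal axis, points with SE from the limma fit) of the 17 tested probes (rows) in 5 comparisons (panels). Filled points were called, dotted lines mark 2-fold, and the single filled point of the last 2 panels is *Pde8a*, at -1.35 and -1.91.

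*Pde8a* encodes a cAMP-specific enzyme of high affinity for its substrate, and its probe A_52_P391000 carried the largest range of group means in the family among the probes detected on all 12 arrays. On the log2 scale relative to the 75th percentile of each array, it read -3.45, -3.33 and -3.10 with BSA. It read -2.74, -2.92 and -2.56 with Rspo2, and -3.45, -3.34 and -3.29 with Wnt3a. With both proteins it read -4.79, -4.57 and -4.78. All 3 arrays of the combination lay below every other array, all 3 Rspo2 arrays lay above every other array, and the Wnt3a and BSA ranges overlapped. The mean intensity was 109 with BSA, 135 with Rspo2, 80.4 with Wnt3a and 37.6 in the combination, and the probe stayed well above background on all 12 arrays.

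Rspo2 alone changed the *Pde8a* signal by 0.55 (SE 0.12) on the log2 scale, a 1.47-fold higher signal, and Wnt3a alone by -0.07 (SE 0.12, 95% interval -0.33 to 0.19). With the combination it was 2.68-fold lower than with BSA, a log2 change of -1.42 (SE 0.12). Against Wnt3a the change was -1.35 (SE 0.12) and the interaction was -1.91 (SE 0.17). Within slide 3 the 3 combination arrays averaged -1.43 against the Wnt3a array beside them, a difference that rests on a single Wnt3a array. Within slide 1 the Rspo2 array was 0.56 above the mean of the BSA arrays. With slide as a term, which chains such differences within slides, the combination against BSA gave -1.53 and remained called. After normexp background correction, which added an offset of 50 intensity units, the 3 *Pde8a* calls were lost. The changes were then -0.93, -0.77 and -1.46 for the combination against BSA, the combination against Wnt3a and the interaction. The group means of this probe, 37.6 to 135 intensity units, are on the scale of that offset, and its part in the loss was not tested.

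*Pde4b* encodes a cAMP-specific enzyme that is known for its part in inflammatory signalling, and its 3 tested probes moved together. The probe A_52_P370274, to a cDNA clone, read 0.70, 0.61 and 0.39 with BSA and 0.41, 0.33 and 0.93 with Rspo2. It read -0.32, -0.15 and -0.14 with Wnt3a and -0.72, -0.88 and -1.09 with both. The BSA and Rspo2 ranges overlapped, the Wnt3a arrays were lower than both, and the combination lay lowest. The 2 tested probes to the RefSeq transcript, 543 bases apart, followed the same order. A_51_P512340 read 0.84, 0.85 and 0.84 with BSA, 0.86, 0.80 and 0.95 with Rspo2, 0.42, 0.60 and 0.35 with Wnt3a, and -0.14, -0.10 and -0.26 with both. Over the 3 arrays of each group A_52_P423247 averaged 0.02 (SD 0.05) with BSA, -0.02 (SD 0.12) with Rspo2, -0.51 (SD 0.02) with Wnt3a and -0.94 (SD 0.06) in the combination.

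Expressed as log2 changes, the 3 *Pde4b* probes differed from BSA by -0.03 to 0.03 with Rspo2 and by -0.77 to -0.38 with Wnt3a. With both proteins they stood at -1.47 (SE 0.16), -1.01 (SE 0.08) and -0.96 (SE 0.08), or 2.76-fold, 2.01-fold and 1.94-fold lower. Adding Rspo2 to Wnt3a moved them by -0.69, -0.62 and -0.43, and their interactions were -0.69, -0.65 and -0.40, none of them past 2-fold. Within slide 3 the combination differed from the single Wnt3a array by -0.76, -0.51 and -0.42, in the same order of probes. With slide as a term the combination against BSA gave -1.78, -0.86 and -0.80 and none was called. Without Rspo2 and Wnt3a replicate 3, A_51_P512340 fell just short of 2-fold at -0.96. After normexp background correction it was at -0.92 and also no longer called.

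*Pde4a*, the second cAMP-specific PDE4 gene that was measured, had its tested probe A_51_P313855 lower with each protein. It read -0.33, -0.36 and -0.40 with BSA, -0.86, -0.87 and -0.79 with Rspo2, -0.98, -1.04 and -1.33 with Wnt3a, and -1.37, -1.48 and -1.55 with both. No neighbouring groups overlapped in this order, though the gap between the lowest Wnt3a array and the highest array of the combination was small. The log2 changes against BSA were -0.47 (SE 0.10), -0.75 (SE 0.10) and -1.10 (SE 0.10), and the interaction was 0.13 (SE 0.14, 95% interval -0.17 to 0.43). The Wnt3a array on slide 3 was lower than the 2 on slide 2, and within slide 3 the combination differed from it by -0.13. With slide as a term the combination against BSA came to -0.81 and was not called. The other *Pde4a* probe, A_52_P600760, lay 19.9 kb upstream and read between 19.3 and 40.3 intensity units, well above background on 4 arrays, so it was not tested.

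**Figure D3:**
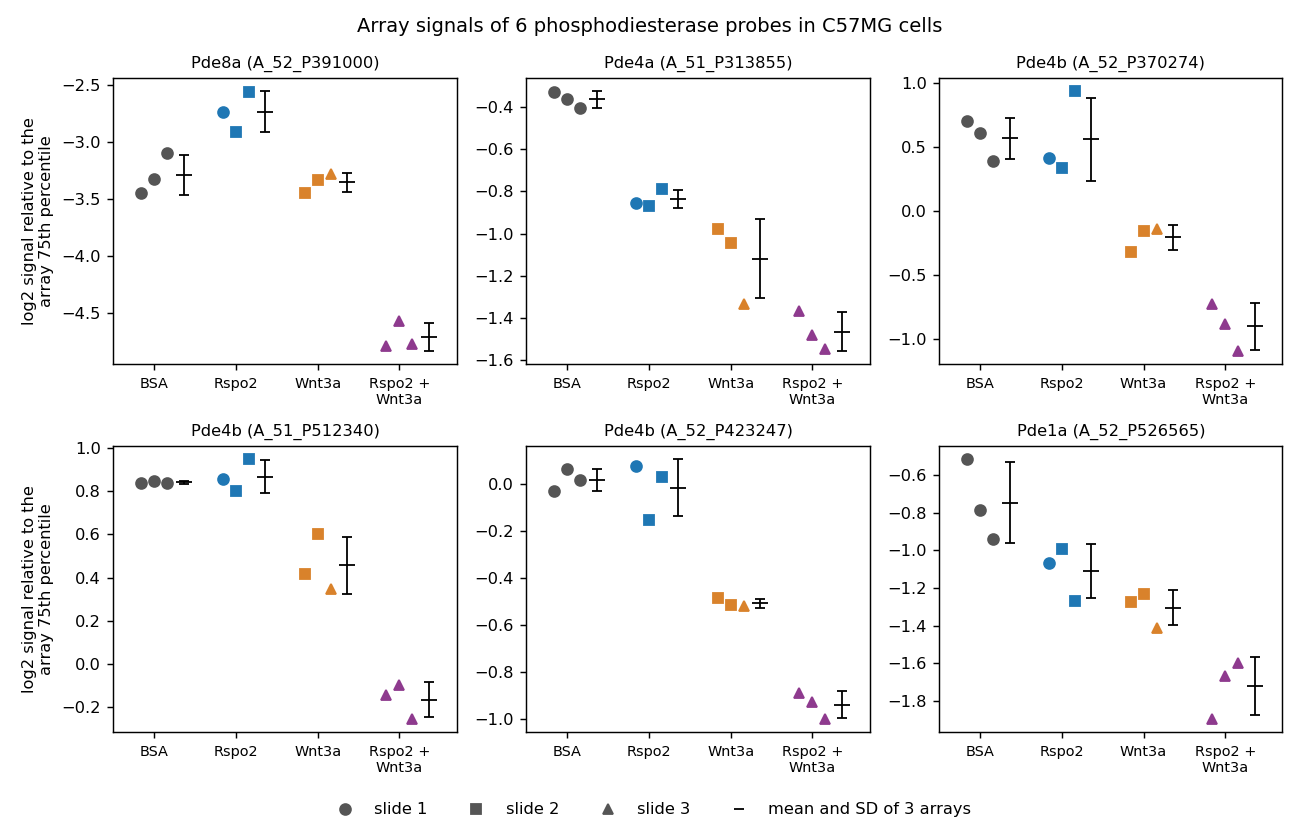
Signal of 6 probes (panels) on each of the 12 arrays by treatment, as log2 after division by the 75th percentile of each array. Symbols give the slide, and bars give the mean and SD of 3 arrays. In every panel the 3 arrays of the combination are the lowest, and only for *Pde8a* do all 3 Rspo2 arrays lie above all BSA arrays.

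*Pde4d*, the third PDE4 gene, was measured by a dim probe with wide scatter. A_52_P589745 ran from -4.34 to -3.35 with BSA, from -4.08 to -3.62 with Rspo2, from -4.53 to -4.11 with Wnt3a and from -4.63 to -4.03 with both. All neighbouring ranges overlapped. The change with both proteins was -0.37 (SE 0.24), with a 95% interval from -0.91 to 0.17 that reaches almost 2-fold, and it was -0.61 with slide as a term. The probe A_52_P582018, to the same RefSeq transcript, was well above background only on BSA replicate 1, at 129 intensity units, with a median of 12.8 over the 12 arrays.

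*Pde7a*, a cAMP-specific gene of the PDE7 group, was lower with both proteins by less than 2-fold. Its probe A_51_P293269 read 0.98, 0.93 and 0.98 with BSA, 0.93, 1.03 and 0.85 with Rspo2, 0.85, 1.02 and 0.68 with Wnt3a, and 0.45, 0.49 and 0.52 with both. The combination lay below all other arrays and the other 3 groups overlapped. Its change with both was -0.47 (SE 0.09), and the second probe, A_52_P117892, stood at -0.58 (SE 0.14). Fitted with slide as a term they became -0.22 and -0.77. With Wnt3a alone the 2 probes gave -0.11 and -0.42.

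Among the genes whose enzymes accept both nucleotides, *Pde1a* was lower with the combination on all 4 probes. The probe A_52_P526565 read -0.52, -0.79 and -0.94 with BSA, -1.07, -0.99 and -1.27 with Rspo2, -1.28, -1.23 and -1.41 with Wnt3a, and -1.90, -1.67 and -1.60 with both. Its Rspo2 arrays lay below every BSA array, and those of the combination lay below all others. The other 3 probes, 4.49 to 33.8 kb from it, gave -0.52, -0.41 and -0.41 with both proteins, where A_52_P526565 gave -0.97 (SE 0.13). The 4 stayed lower with slide as a term, A_52_P526565 at -0.75 and the others between -0.55 and -0.25. With Rspo2 alone they gave 0.14, 0.17 and 0.11, and A_52_P526565 gave -0.36 (SE 0.13). The probes of *Pde1a* thus differed in sign under Rspo2, none of those 4 changes being called.

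*Pde1c* and *Pde10a* had no called probe in any comparison. The 4 tested *Pde1c* probes changed by between -0.37 and 0.23 with Rspo2, between -0.37 and 0.30 with Wnt3a and between -0.0013 and 0.33 with both, with SE from 0.13 to 0.23. With slide as a term the changes with both ran from -0.06 to 0.72, and the sign of several *Pde1c* changes differed between normalizations. The 3 *Pde1c* probes other than A_52_P208222 read at most 84.4 intensity units on any array. The remaining *Pde1c* probes were to cDNA clones, A_52_P108243 well above background on no array and A_52_P236937 on 2. *Pde10a* probe A_51_P419017 gave -0.20, -0.06 and -0.08 after Rspo2, Wnt3a or their combination (SE 0.13), and all neighbouring groups overlapped. The 95% interval for the combination, -0.36 to 0.20, lay inside 2-fold, and with slide as a term the change was 0.23. The second *Pde10a* probe, 4.38 kb downstream, was well above background on no array.

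*Pde3b*, known for its role in insulin action, and *Pde5a*, the cGMP-specific gene, could not be followed. The *Pde3b* probe A_51_P143431 was well above background only on BSA replicate 1, with a median of 14.7 intensity units and a highest value of 31.8. A_51_P223611 was so on BSA replicate 1 and on replicate 1 of the combination, the 2 arrays with the largest share of probes well above background. The only *Pde5a* probe, A_52_P674593, read between 3.16 and 11.5 intensity units and was well above background on no array. No change is given for these genes.

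Upstream sequence is shown for the 3 genes with called probes, which were lower in the combination, and only for windows that held a match to the letters below. The windows of the other *Pde4a* and *Pde4b* starts held none. The RefSeq promoter table (build GRCm38.p6) held 19 promoters of 8 family genes and no entry for *Pde3b* or *Pde7a*. The 250 bases before each start, on the strand of the gene, were searched on both strands for CTTTGAT and CTTTGTT, the core letters bound by TCF/LEF factors, and for TGACGTCA and its shorter core TGACG, bound by CREB factors. The last is contained in the one before it. Capitals mark a match, and the array does not tell which start was in use. The *Pde8a* window lies at chr7:81213015-81213264 (+), the *Pde4a* window at chr9:21183851-21184100 (+), and the *Pde4b* windows at chr4:102421305-102421554 (+) and chr4:102569810-102570059 (+).
Pde8a: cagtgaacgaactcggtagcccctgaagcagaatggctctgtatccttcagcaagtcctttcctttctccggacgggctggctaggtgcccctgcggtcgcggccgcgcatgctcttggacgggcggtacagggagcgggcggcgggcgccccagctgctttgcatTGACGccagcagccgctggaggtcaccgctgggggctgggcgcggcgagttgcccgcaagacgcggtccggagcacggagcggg
Pde4a, second of 3 starts: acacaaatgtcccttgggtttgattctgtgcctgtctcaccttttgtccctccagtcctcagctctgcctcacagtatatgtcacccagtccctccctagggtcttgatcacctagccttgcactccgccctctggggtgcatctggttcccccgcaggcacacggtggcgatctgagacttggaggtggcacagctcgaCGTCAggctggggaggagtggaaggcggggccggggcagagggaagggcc
Pde4b, first of 4 starts: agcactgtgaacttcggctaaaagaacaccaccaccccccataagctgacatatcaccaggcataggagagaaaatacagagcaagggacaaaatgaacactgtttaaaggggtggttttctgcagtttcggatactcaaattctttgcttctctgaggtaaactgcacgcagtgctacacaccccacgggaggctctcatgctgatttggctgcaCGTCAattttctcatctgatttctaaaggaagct
Pde4b, second of 4 starts: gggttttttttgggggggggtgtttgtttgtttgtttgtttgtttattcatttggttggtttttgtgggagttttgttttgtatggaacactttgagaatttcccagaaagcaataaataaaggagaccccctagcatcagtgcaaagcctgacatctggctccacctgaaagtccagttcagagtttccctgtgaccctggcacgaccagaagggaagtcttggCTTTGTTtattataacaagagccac

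TGACG was found 84 bases before the *Pde8a* start, and its reverse complement 50 bases before the *Pde4a* start and 34 bases before the first *Pde4b* start. It occurred in 4 of the 19 family promoters, the fourth being 1 of *Pde1a*, and in 17.8% of all 32851 promoters. CTTTGTT was found 25 bases before the second *Pde4b* start and in 1 promoter each of *Pde1c* and *Pde4d*, 3 of the 19, against 5.03% of all promoters. CTTTGAT and TGACGTCA were in none of the 19 windows, and in 3.21% and 1.55% of all. GC content was 68.8% in the *Pde8a* window and 61.2%, 46.0% and 43.2% in the other 3 as listed, with a median of 52.4% over all promoters. A match describes letters in a window and is no measured binding site.

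The p-values of the 14 other phosphodiesterase genes of the mouse are descriptions, since the lists were drawn up with earlier results of these data known. These 14 genes added few measured transcripts. They had 24 probes, of which 5 were tested, from *Pde1b*, *Pde2a*, *Pde6d* and *Pde6g*, and limma called 0 in each of the 5 comparisons, with between 1 and 3 of the 5 at an unadjusted p under 0.05. The 3 were with both proteins against BSA, where 47.9% of all tested probes passed that limit. By limma's adjusted p without a fold limit, the same 3 were lower with both proteins, beside 39.2% of all tested probes passing in either direction. *Pde2a*, a cGMP-stimulated enzyme, was at -0.93 (adjusted p = 0.000824) and -0.78 (adjusted p = 0.00364) on its 2 probes. *Pde1b*, a calmodulin-dependent relative of *Pde1a*, was at -0.32 (adjusted p = 0.034). The first of these *Pde2a* probes, A_51_P120024, ran from 0.23 to 0.58 with BSA and from -0.67 to -0.35 with both. *Pde6d* and *Pde6g*, which encode non-catalytic subunits, gave 0.29 (adjusted p = 0.125) and 0.01 (adjusted p = 0.963). The other 10 genes, *Pde3a*, *Pde4c*, *Pde6a*, *Pde6b*, *Pde6c*, *Pde6h*, *Pde7b*, *Pde8b*, *Pde9a* and *Pde11a*, had no tested probe.

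Beyond the enzymes that degrade cyclic nucleotides, 61 genes that make, sense or anchor them were examined, with earlier results of these data known. Their p-values, here and below, are therefore descriptions and no independent tests. On the array were 58 of these genes, with 128 probes. Of these, 72 probes from 39 genes were tested. With both proteins 2 of the 72 probes, or 2.78%, were called, 1 higher and 1 lower, beside 5.08% of all tested probes, and the median change was -0.01. With Wnt3a alone the same 2 probes were called, beside 2.52% of all tested probes. With Rspo2 alone, for Rspo2 added to Wnt3a and for the interaction limma called 0, and 23, 11 and 15 of the 72 had an unadjusted p under 0.05. Of all tested probes 35%, 18.4% and 29.3% had one. The family's median was -0.47, and the pathway median lay close to the 0.04 of all tested probes. Within the pathway it was -0.47 for 3 probes of guanylyl cyclases and natriuretic receptors and -0.38 for 6 of adenylyl cyclases. Scaffolds and transport stood at -0.13, G protein alpha subunits at -0.01, protein kinase A at 0.13 and cAMP-responsive transcription at 0.14. The 5 tested probes of other phosphodiesterases had -0.32. A low median was not particular to the family, whose genes were chosen with these changes known.

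*Rapgef3*, which encodes EPAC1, a guanine nucleotide exchange factor switched on directly by cAMP, was the pathway gene called higher. It read -1.09, -1.18 and -1.23 with BSA, -1.40, -1.15 and -1.32 with Rspo2, 0.30, 0.44 and 0.04 with Wnt3a, and 1.08, 1.12 and 1.11 with both. BSA and Rspo2 overlapped, Wnt3a lay above them, and the combination lay above Wnt3a. The signal was 2.69-fold higher with Wnt3a (log2 change 1.43, SE 0.11, limma adjusted p = 3.27e-05) and 4.83-fold higher with both (2.27, SE 0.11, adjusted p = 2.59e-07). Adding Rspo2 to Wnt3a gave 0.85 (adjusted p = 0.00113), and the interaction was 0.97 (adjusted p = 0.00572), both under 2-fold. It remained called with slide as a term, at 1.37 with Wnt3a and 2.43 with both. The *Rapgef3* probe was therefore highest in the same 3 arrays in which the *Pde8a*, *Pde4a* and *Pde4b* probes were lowest.

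The probe called lower was 1 of 3 tested for *Gnas*, the locus of the stimulatory G protein alpha subunit, and it was made to a cDNA clone. A_51_P335321 read -1.71, -3.07 and -2.30 with BSA and between -4.22 and -3.37 with Wnt3a, a change of -1.57 (SE 0.32, limma adjusted p = 0.00477). With both proteins it stood at -1.28 (SE 0.32, adjusted p = 0.0089), and without BSA replicate 1 at -0.95, no longer called. Neither change was called with slide as a term, at -1.80 with Wnt3a and -1.25 with both. The *Gnas* probes A_52_P112182 and A_52_P112188 changed by -0.01 each with both (adjusted p = 0.963 and 0.971), so the tested probes of this locus differed.

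Probes past limma's adjusted p alone were no more frequent in the pathway as a whole than over all tested probes. With both proteins 9 of the 72 were higher and 15 lower, a smaller share than the 39.2% of all tested probes. The same 39.2% is the background for the counts by gene group that follow. Of the 19 probes for cAMP-responsive transcription factors and targets, 7 were higher and 3 lower. The 7 were 5 of the 6 probes of *Crem*, with all 6 between 0.16 and 0.56, and 2 of the 3 of *Creb1*, at 0.55 (adjusted p = 0.000427) and 0.42 (adjusted p = 0.00127). The 3 lower ones were *Nr4a1*, *Nr4a2* and *Per1*, all known as early targets of CREB, at -0.22 (adjusted p = 0.0451), -0.48 (adjusted p = 0.00621) and -0.50 (adjusted p = 0.0454). *Atf1*, *Crtc2*, *Crtc3*, *Dusp1* and *Sik1* did not pass. Of 6 adenylyl cyclase probes, 2 were lower, *Adcy9* at -0.53 (adjusted p = 0.00266) and 1 of 2 for *Adcy7* at -0.54 (adjusted p = 0.0103), and those of *Adcy3* and *Adcy6* did not pass.

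Both probes of *Npr2*, the receptor guanylyl cyclase for C-type natriuretic peptide, were lower, at -0.47 (adjusted p = 0.0145) and -0.51 (adjusted p = 0.0182), and *Gucy2c* did not pass. Of 11 protein kinase A probes, 1 of 3 for *Prkar2a* was higher, at 0.31 (adjusted p = 0.0227), and *Prkar2b* was lower, at -0.40 (adjusted p = 0.0118). *Prkaca*, *Prkacb*, *Prkar1a*, *Pkia* and *Pkig* did not pass, nor did *Prkg2* of protein kinase G and *Gnai1*, *Gnai2* and *Gnai3* of the inhibitory G proteins. Among the 24 probes of scaffolds and transport, 6 were lower and 0 higher, a smaller share than the 39.2% of all tested probes that passed in either direction. The lowest was *Akap13*, an anchoring protein for protein kinase A, at -0.95 (adjusted p = 0.00457), on 1 of its 2 probes. The others were single probes of *Akap6*, *Akap7*, *Akap9*, *Akap10* and *Pde4dip*, from -0.68 to -0.35. *Akap1*, *Akap8*, *Akap11* and the cAMP exporter *Abcc4* did not pass.

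**Figure D4:**
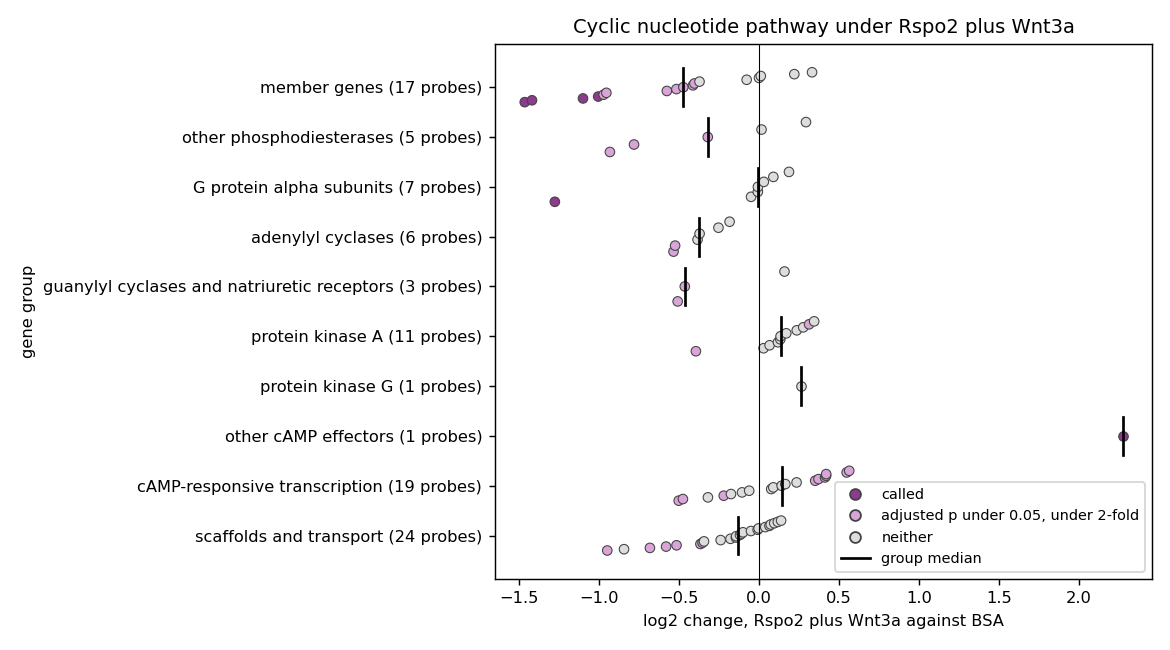
Log2 change with Rspo2 plus Wnt3a against BSA (horizontal axis) of each tested probe, by gene group (rows), with the group median as a bar. The median of the 17 family probes is at -0.47, and the single point above 2 is *Rapgef3* at 2.27.

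The genes whose signals most resembled the 3 family probes with the widest range of group means were sought by Pearson's r over the 12 arrays, among 12145 genes with a probe well above background on every array. These arrays share 4 treatments, and the values are descriptions. For *Pde8a* they were *Akr1c14* (0.979), *1700016M24Rik* (0.976) and *Dhrs3* (0.972). For *Pde4b* A_52_P370274 they were *Tanc2* (0.987), *Frrs1* (0.982) and *Tnni2* (0.981). For *Pde4a* they were *Ahdc1* (0.982), *1500032O14Rik* (0.981) and *Stard9* (0.978). The 3 family probes shared none of these 9 genes. *Akr1c14* encodes a steroid reductase and *Dhrs3* a retinal reductase.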

How the data were processed

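Total RNA from 12 C57MG cultures was labelled with Alexa-555 and hybridised to 1-colour Agilent whole mouse genome arrays. Per the labels, the authors extracted spot values with Agilent Feature Extraction 9.5.3.1. The deposited intensity values are background-subtracted signals, mean signals with local background, and flags (other) for spots well above background. A deposited table gives the ratio of each signal to the 75th percentile of its array, from GeneSpring per the study's methods.

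Here outlier-flagged spots were left out (1327 of 520548 values, none of a family probe), spots of a probe were averaged, and log2 signals were taken relative to the 75th percentile of each array. Probes that some group had well above background in all 3 replicates, with at least 2 values a group, were fitted over all 12 arrays in limma 3.58.1 (R 4.3.3), with Benjamini-Hochberg adjustment over 22751 probes. Calls needed an adjusted p under 0.05 and a 2-fold change. The methods' own test, a t-test with unequal variance, was an alternative. Samples were grouped by their titles, which number 3 biological replicates a group. The number of arrays limits the precision.

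The family members, gene lists and tests were chosen with earlier results of these data known. Named were all family probes, called pathway and other phosphodiesterase genes (all tested ones where no more than 3 were called), and the 3 most alike genes of the 3 probes with the widest range of group means. 22951 probes were named by RefSeq accession, the others by the symbol on the array. The fit was tested on simulated data. Figures were drawn with matplotlib.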

Additional observations from a re-analysis of the deposited data

Results flagged for a closer look

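*Pde8a* differed in its response to Wnt3a with and without Rspo2. Its interaction was -1.91 (SE 0.17) on the log2 scale in the limma fit, with Wnt3a giving -0.07 without Rspo2, and Rspo2 giving 0.55 without Wnt3a. All 3 arrays of the combination were below every other array. The gene was among those chosen with this result known, so no p-value is given.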

How the results depend on the processing

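The counts of called family probes, 0 with Rspo2, 0 with Wnt3a, 4 with both against BSA, 1 with both against Wnt3a and 1 for the interaction, became 2, 7, 11, 5 and 5 without the fold requirement, where 16.8%, 31.5%, 39.2%, 4.27% and 8.9% of all tested probes passed. With normexp background correction they were 2 with both against BSA, 0 with both against Wnt3a and 0 for the interaction. The cause was not tested. With slide as a term 1 probe was called with both against BSA, *Pde8a*, and the methods' t-test with adjusted p called 0 with both against Wnt3a. For the alternatives that kept the fold requirement, the share of all tested probes called is not given. These counts therefore do not show whether the family lost or gained more calls than probes in general. Leaving out 1 array at a time gave 0 to 0 with Rspo2, 0 to 0 with Wnt3a, 4 to 5 with both against BSA, 1 to 1 with both against Wnt3a and 1 to 1 for the interaction. The other alternatives kept each count within 1.5 times. Of 2149 recomputed log2 changes of family probes, 2032 moved by less than the SD between replicates, and 117 moved by more, under normexp, quantile, the other percentile and slide, with no called value changing sign. Scaling on the 75th percentile of probes well above background on all arrays moved the median of all tested probes by -0.12 with Wnt3a, -0.11 with both and 0.11 for the interaction. Relative to that median 15 of 17 family probes were lower with both, as under the main scaling, and 6 were called. Quantile normalization gave 11 of 17 lower with Wnt3a instead of 15, and 13 with both. Replicate numbers are shared between groups, but of 18 same-numbered pairs only 4 had deviations correlated above 0.1 (-0.413 to 0.271). A replicate block left the counts at 0, 0, 4, 1 and 1. The pathway calls were recomputed under alternatives added after the data were seen. *Rapgef3* remained called in all 26 for each comparison, and the *Gnas* probe was lost in 3 with Wnt3a and 5 with both. Depth is limited at probes near background, where 11 family probes could not be tested.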
